A study of Rattus norvegicus with 256 samples.

Results

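The enzymes and carriers of steroid hormone synthesis were followed across 31 organs of the rat by taking every RAE230_2 probeset that the platform annotation gives to 10 genes: Star, Cyp11a1, Cyp11b1, Cyp11b2, Cyp17a1, Cyp21a1, Hsd3b1, Hsd17b1, Cyp19a1 and Fdx1. There were 17 such probesets among the 31042 on the array, of which 13 carried 1 gene symbol and 4 were shared between near-identical genes. Probesets 1368739_s_at (Cyp11b1/Cyp11b3/Cyp11b2), 1387305_s_at (Cyp11b1/Cyp11b2), 1370497_at (Cyp11b1/Cyp11b3) and 1387988_at (Hsd3b3/Hsd3b1/Hsd3b2) cannot assign their signal to 1 gene, and Cyp11b2 had no probeset of its own. Each probeset was therefore described on its own.

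Steroid hormones are made from cholesterol. The Star protein moves cholesterol to the inner mitochondrial membrane, where Cyp11a1 removes its side chain to give pregnenolone, with electrons passed on by ferredoxin 1 (Fdx1), a small iron-sulfur protein that also serves other mitochondrial cytochromes P450. Hsd3b enzymes turn pregnenolone into progesterone; Cyp21a1, Cyp11b1 and Cyp11b2 continue to corticosterone and aldosterone in the adrenal cortex, while Cyp17a1, 17-beta-hydroxysteroid dehydrogenases and aromatase (Cyp19a1) lead to androgens and estrogens in the gonads.

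The animals were untreated Han Wistar-derived rats (AlpkHsdBrlHan:WIST), 5 males and 5 females, whose age was not given in the sources used here. RNA of each organ was hybridised to arrays: 115 male and 119 female arrays of 26 tissues found in both sexes, and 22 arrays of 5 organs found in one sex. The groups that carry most of the results were adrenal (5 males, 5 females), ovary (5 females) and testes (4 males). The question put to the series was which transcripts are sexually dimorphically expressed (SDE) in which tissue.

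All values are log2 signals as deposited, between 1.02 and 15.83 over the whole data set; a difference of 1 is 2-fold. A probeset was taken as expressed where its group mean was above 6.65, the background limit of the study's methods, and as called between groups where it was also different by more than 1 with an adjusted p under 0.05 (limma, Benjamini-Hochberg over all 31042 probesets). Signals of different probesets were never set against each other, because probes differ in brightness at equal transcript level. The arrays of adrenal reached a highest signal of 15.19 to 15.45 over all probesets, so values above 14 lie near the top of the scale. In bulk tissue, fewer cells of a type and less RNA per cell cannot be told apart.

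Array medians ranged from 3.86 to 4.45. There were 4 arrays, 1 of aorta, 1 of heart and 2 of bone marrow, at odds with their sex label; they were kept as labelled, and without them the members again had 2 sex calls. A further 7 arrays stood apart for the steroid synthesis probesets themselves, having at least 1 of them above 6.65 and more than 3 above the median of their organ: pituitary male 1 and female 1, bone marrow males 1, 3 and 4, pancreas female 2 and mesenteric lymph node male 4. They are described below, and leaving them out changed no count of called probesets. The organs carried part of their defining markers. The male germ cell genes Tnp1, Tnp2, Prm1, Prm2, Ldhc and Odf1 averaged 14.37 to 14.65 on the testes arrays. Their average was at most 3.39 on the adrenal and ovary arrays. Granulosa cell markers, which include the member Cyp19a1, averaged 8.99 to 10.02 on the ovary arrays. The chromaffin cell markers of the adrenal medulla averaged 10.08 to 10.97 on the adrenal arrays. Leydig cell markers, which include the member Hsd3b1, averaged 6.45 to 7.56 in testes and 7.08 to 7.52 in ovary. Sertoli cell markers averaged 5.92 to 6.30 in testes but 7.53 to 7.91 in ovary. Oocyte markers averaged 3.86 to 4.37 in ovary, below the limit. The p-values below measure the spread between the samples of these animals. Where 1 fit covered many organs, that spread was pooled over them and is not that of the organs named.

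RefSeq promoter windows of build GRCr8, from 250 bases before to 50 bases after the transcript start, were held for 4 of the 10 genes, and all 4 had adrenal first or second in the order of organ means given below. They are shown because the hexamer AGGTCA is recognised by nuclear receptors, among them steroidogenic factor 1, the product of Nr5a1. Letters of AGGTCA, on either strand, are in capitals; the Fdx1 and Hsd3b1 windows are on the minus strand and are printed in the direction of the gene.
Hsd3b1, chr2:188864645-188864944, minus strand: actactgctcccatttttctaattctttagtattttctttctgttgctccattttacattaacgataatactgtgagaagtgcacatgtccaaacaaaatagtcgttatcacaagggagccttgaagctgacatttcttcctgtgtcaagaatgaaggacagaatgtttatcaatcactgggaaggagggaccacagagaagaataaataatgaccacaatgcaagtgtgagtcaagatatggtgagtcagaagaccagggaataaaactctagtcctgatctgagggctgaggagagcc
Fdx1, chr8:61183596-61183895, minus strand: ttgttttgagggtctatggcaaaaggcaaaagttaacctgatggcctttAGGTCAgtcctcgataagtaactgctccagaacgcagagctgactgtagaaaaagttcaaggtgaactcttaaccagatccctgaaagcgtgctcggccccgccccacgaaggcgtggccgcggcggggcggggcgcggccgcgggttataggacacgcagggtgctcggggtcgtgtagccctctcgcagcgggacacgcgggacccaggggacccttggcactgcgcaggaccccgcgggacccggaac
Cyp11a1, chr8:67318415-67318714, plus strand: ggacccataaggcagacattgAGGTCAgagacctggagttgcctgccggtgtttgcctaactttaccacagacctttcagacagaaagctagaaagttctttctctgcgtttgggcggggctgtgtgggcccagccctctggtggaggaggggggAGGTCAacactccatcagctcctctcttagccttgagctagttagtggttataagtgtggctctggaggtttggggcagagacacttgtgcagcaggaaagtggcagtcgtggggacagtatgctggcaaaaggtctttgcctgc
Cyp21a1, chr20:4028141-4028440, plus strand: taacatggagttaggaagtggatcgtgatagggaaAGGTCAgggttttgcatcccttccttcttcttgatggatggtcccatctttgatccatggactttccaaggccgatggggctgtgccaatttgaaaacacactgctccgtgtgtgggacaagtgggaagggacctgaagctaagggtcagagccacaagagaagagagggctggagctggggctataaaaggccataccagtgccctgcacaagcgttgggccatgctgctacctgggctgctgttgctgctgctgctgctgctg
AGGTCA occurred in 3 of these 4 windows and in 16.2% of all 33469 promoter windows of this length, searched on both strands. In Cyp11a1 it began at base -229 and again at -95, in Fdx1 at -201 and in Cyp21a1 at -215, counted from the transcript start, and the Hsd3b1 window held no AGGTCA. The longer AAGGTCA, which contains AGGTCA, was in 1 of 4 windows (Cyp21a1) against 4.61% of all windows, AAGGCCA in 2 of 4 (Fdx1 and Cyp21a1) against 6.27%, TATAAA in 1 of 4 (Cyp21a1, beginning at -32) against 14.2%, and AGATAA in 0 of 4 against 11.6%. Apart from Cyp21a1, whose annotated gene already begins at chr20 position 4028323, the start used was the first base of the annotated gene, so each window holds promoter and the first transcribed bases. With 4 windows these shares are a description of the sequences only.

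Across organs, the members fell into distinct patterns, shown in the map of organ means. In 19 of the 31 organs, Fdx1 was the sole member expressed by organ mean. Adrenal had 10 of the 17 probesets above 6.65, ovary 8, testes 6, stomach 5 and adipose 4. Duodenum, jejunum, ileum and liver had 2 each, Cyp17a1 beside Fdx1, and caecum, colon and skin had 2 each, the shared Hsd3b probeset beside Fdx1.

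Star, the cholesterol carrier, was expressed by organ mean in 4 organs. By probeset 1368406_at, the 10 adrenal arrays ranged from 14.11 to 14.34 (median 14.23) and the 5 ovary arrays were 14.23, 14.26, 14.31, 14.16 and 14.27. The 4 testes arrays were 8.86, 8.89, 7.23 and 8.59. Adrenal and ovary overlapped fully, and both lay above every testes array. The organ that came next to the ovary was not testes but adipose, with 10 arrays between 7.72 and 9.67 (median 8.84), which overlapped the testes arrays. The second Star probeset, 1387174_a_at, gave the same order, with organ means of 14.75 in adrenal, 14.68 in ovary, 8.20 in adipose and 8.02 in testes. Below the limit, spleen followed at 4.72 ± 0.91 (SD, n = 8) by 1368406_at.

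Cyp11a1, the side-chain cleavage enzyme, was expressed in the same 4 organs. Adrenal arrays ranged from 14.24 to 14.49 (median 14.30), ovary arrays were 14.17, 14.20, 14.16, 13.98 and 14.12, and testes arrays 9.03, 9.08, 8.35 and 8.92. Every adrenal array was above every ovary array, and testes lay far below both. Adipose followed with 6.83 to 8.46 (median 7.72), overlapping testes by 2 arrays, at 8.46 and 8.43. Heart arrays ranged from 5.71 to 7.20 (median 6.64), with an organ mean just below the limit and 3 of 7 arrays above it. Testes array 3 was the lowest of the 4 for both Star probesets and Cyp11a1. It was also lowest for Insl3, a Leydig cell hormone (7.5 against 8.1 to 8.4 on the other arrays), and for the mean of 4 Leydig cell markers (6.45 against 6.61 to 7.56). Of these markers, however, Hsd17b3 and Lhcgr were lowest on array 4 and Hsd3b1 on array 1, and the member Cyp17a1 was lowest on array 4.

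Fdx1, the electron donor, was above 6.65 on every array of the series by probeset 1368336_at, from 7.37 to 14.71. Its order was adrenal with 14.61 ± 0.08 (SD, n = 10), ovary with 14.15 ± 0.05 (n = 5) and liver with 12.05 ± 0.75 (n = 9), and no 2 of these neighbours overlapped. Liver, heart, aorta, pancreas and testes overlapped their neighbours in the order, and brain was lowest with 7.70 ± 0.26 (n = 10). The second Fdx1 probeset, 1389827_at, was at or below 6.82 on every array, but had the same first 3 organs: 5.98 in adrenal, 4.63 in ovary and 3.74 in liver.

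Hsd3b1, a 3-beta-hydroxysteroid dehydrogenase that makes progesterone, was expressed by organ mean in 3 organs by its own probeset 1368578_at. Ovary arrays were 14.68, 14.81, 14.74, 14.75 and 14.55, adrenal arrays 14.55 to 14.71 (median 14.65), and testes arrays 9.74, 9.77, 9.88 and 10.03. Ovary and adrenal overlapped and testes lay below both. The shared probeset 1387988_at, which the annotation gives to Hsd3b3, Hsd3b1 and Hsd3b2, had another order of organs altogether. Its caecum arrays ranged from 12.85 to 13.24 (median 12.98), ovary arrays were 12.71, 12.60, 13.69, 12.32 and 12.95, and colon arrays 11.21 to 12.74 (median 12.26). Skin followed at 8.46 to 10.23 and adrenal at 6.76 to 8.67, whereas the 4 testes arrays averaged 2.42. Caecum, ovary and colon overlapped as neighbours, skin stood below all colon arrays, and skin and adrenal overlapped by their extreme arrays.

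The enzymes of the last steps of the adrenal cortex had high values in adrenal and, apart from the arrays named above, nowhere else. Cyp21a1, the 21-hydroxylase needed for corticosterone and aldosterone, ranged from 14.64 to 14.77 on the 10 adrenal arrays (median 14.70). Outside adrenal and the arrays that stood apart, its highest value was 5.72, on ovary array 5, and the median over these 239 arrays was 2.19. Cyp11b1, the 11-beta-hydroxylase, ranged from 13.24 to 13.94 in adrenal by 1368738_at (median 13.76). The probeset shared by Cyp11b1 and Cyp11b2 (aldosterone synthase) ranged from 14.38 to 14.72 in adrenal, and that shared with Cyp11b3 as well from 13.12 to 14.09. No adrenal array overlapped any array of another organ for these 4 probesets, the arrays that stood apart included. The fourth Cyp11b probeset, 1370497_at, was at or below 4.48 on every array, with adrenal first at 3.48 ± 0.53 (SD, n = 10).

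Brain showed low but uneven signals of the Cyp11b probesets. By 1368738_at the male arrays were 4.41, 2.20, 4.02, 2.66 and 2.43 and the female arrays 2.20, 2.55, 4.89, 5.11 and 5.62, all below the limit. The 2 shared probesets 1368739_s_at and 1387305_s_at rose on the same 5 arrays (male 1, male 3, female 3, female 4 and female 5), to 3.81 to 4.70 and to 4.69 to 5.88. Neither sex was higher throughout.

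Cyp17a1, the 17-alpha-hydroxylase that leads to androgens, was below the limit on all adrenal arrays, with a mean of 2.41 in both sexes; the rodent adrenal is known to lack this enzyme and to make corticosterone. The highest organ mean was that of stomach, with male arrays of 12.21, 12.57, 13.69, 13.41 and 13.41 and female arrays of 10.81, 13.20, 13.82, 13.53 and 13.72. Jejunum followed with 11.91 to 12.44 (median 12.24), duodenum with 10.57 to 12.06 (median 11.70) and ileum with 9.98 to 11.04 (median 10.63). Each of these neighbours overlapped, but every jejunum array was above every ileum array.

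The gonads came after the small intestine for Cyp17a1. Testes arrays were 11.23, 10.44, 9.94 and 9.40, and ovary arrays 10.59, 9.96, 9.0, 5.95 and 11.10. The 2 organs overlapped, and ovary had the widest spread of all expressing organs (SD 2.04), mainly through array 4. Liver followed at 6.53 to 8.64 (median 7.57). In skin 4 of 9 arrays were above the limit, at 7.14 to 7.48, and 3 were at or below 4.29. In caecum 3 of 10 arrays stood at 5.68 to 6.23 and the others at 2.28 to 2.84.

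Aromatase, Cyp19a1, which makes estrogens from androgens, was expressed by organ mean in stomach alone, by all 3 of its probesets. By 1369444_at, male stomach arrays were 10.06, 10.57, 12.14, 11.34 and 10.60 and female arrays 8.49, 9.72, 11.12, 11.40 and 11.50. Ovary arrays were 5.24, 6.45, 6.43, 2.77 and 6.55, and no stomach array overlapped an ovary array by this probeset. Probesets 1379643_at and 1382425_at averaged 10.22 and 10.26 in stomach and 6.01 and 6.13 in ovary, with 1 and 2 of 5 ovary arrays above the limit. By 1379643_at stomach female 1 (7.14) lay below ovary array 5 (7.27), the one overlap. Stomach female 1 was lowest of the 10 stomach arrays for Cyp17a1, Fdx1 (9.33) and all 3 Cyp19a1 probesets, as it was for the endocrine cell marker Chga (9.2 against 10.5 to 12.9). Its adipocyte markers averaged 7.09, second to the 7.82 of female 5, whose Cyp19a1 was 11.50 by 1369444_at. The part of tissue composition in these values was not tested.

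**Figure D1:**
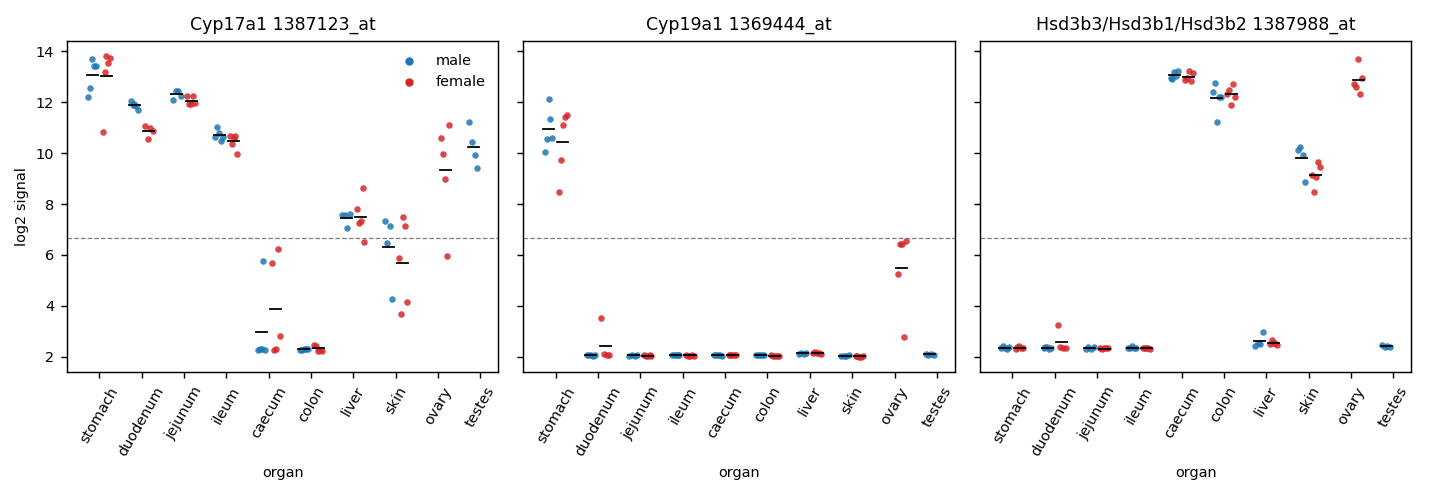
Log2 signal on every array (points; blue male, red female; black bars are group means; the dashed line is the expression limit of 6.65) for Cyp17a1, Cyp19a1 1369444_at and the shared Hsd3b probeset in digestive organs, liver, skin and gonads. Cyp17a1 has its highest mean in stomach, followed by jejunum, duodenum and ileum, Cyp19a1 is high in stomach alone, and the shared Hsd3b probeset is high in caecum and colon but not in stomach or small intestine.

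Hsd17b1, which converts estrone to estradiol, was expressed in ovary alone, with arrays of 8.12, 8.54, 7.12, 8.16 and 8.48. The next organ, kidney, was below the limit on all arrays, with males at 5.18, 5.23, 5.11, 6.16 and 4.79 and females at 2.38, 3.54, 2.39, 3.69 and 2.46. Every male kidney array was above every female one, by 2.40 on average, but the share of all kidney probesets without overlap was not counted. This would have been a call without the expression limit (adjusted p = 0.00368, limma), where 1.85% of all probesets were called in kidney with the limit.

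Within the ovary, several members were low or high on the same arrays. Array 4 was lowest for Cyp17a1 (5.95), for all 3 Cyp19a1 probesets (2.77, 5.08 and 4.64) and for Fdx1 (14.08). It was also lowest for the granulosa cell genes Amh (7.6 against 9.0 to 9.5) and Foxl2 (8.8 against 9.5 to 9.7) and for the luteinizing hormone receptor Lhcgr (9.9 against 11.2 to 11.9). The granulosa list, which holds Cyp19a1, averaged 8.99 on array 4 and 9.55 to 10.02 on the others, but Inhba was not lowest there (11.21, in a range of 10.46 to 11.54). Array 5 was highest for Cyp17a1, for all 3 Cyp19a1 probesets and for Lhcgr. The luteal cell list was lowest on array 5, at 9.97 against 10.46 to 11.02, with Ptgfr (3.92), Prlr (11.75) and Sfrp4 (7.65) lowest there. The stage of the estrous cycle was not given in the sources used here, and its part in this spread was not tested.

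Testes and ovary, the sex-specific steroid producers, were compared directly; organ and sex cannot be told apart here. Of the 17 probesets, 7 were called, beside 28.1% of all probesets, and all 7 were higher in ovary, the direction of 15.7% of all probesets. Testes minus ovary was -5.85 (SE 0.32, adjusted p = 8.04e-07, limma) and -6.66 (SE 0.26, adjusted p = 9.66e-08) for the 2 Star probesets, -5.28 (SE 0.15) for Cyp11a1, -4.85 (SE 0.08) for Hsd3b1, -3.41 (SE 0.13) for Fdx1 and -5.21 (SE 0.38) for Hsd17b1. It was largest for the shared Hsd3b probeset, at -10.43 (SE 0.25, adjusted p = 4.21e-09). None of these 7 overlapped between the organs, as was the case for 82% of all expressed probesets. Cyp17a1 was the sole expressed member not called, with a mean 0.93 higher in testes (SE 1.01, adjusted p = 0.493, limma).

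All 6 male germ cell markers were called higher in testes than in ovary. The Leydig cell markers Insl3 and Lhcgr stood at 7.5 to 8.4 and 6.2 to 7.2 on the testes arrays. Hsd17b3, the Leydig cell enzyme that makes testosterone, was below the limit on every testes array (2.84, 4.91, 2.15 and 2.07). The Leydig cell list, which holds the member Hsd3b1, averaged 6.45 to 7.56. How much of the lower signal of steroid genes in testes comes with the share of Leydig cells was not tested. Of the pathway genes beyond the members, 5 of 8 measured cholesterol supply genes were lower in testes and 1 was higher, as were 6 and 1 of 15 other steroid enzymes and 7 and 1 of 11 receptors and regulators. The list medians were -1.27, -2.11 and -2.90, beside -0.03 for all probesets. The largest differences were in Akr1c3 (1.88 in testes, 14.54 in ovary; listed by the older name Akr1c18, the progesterone-degrading 20-alpha-hydroxysteroid dehydrogenase of the corpus luteum), Scarb1, the HDL receptor (7.26 and 14.54), Mrap, a partner of melanocortin receptors (3.94 in testes, testes minus ovary -7.06), and Nr5a2, a nuclear receptor (2.36 and 9.02). Higher in testes were Nr0b1, a nuclear receptor repressor (7.50 and 2.96), the hormone-sensitive lipase Lipe (10.27 and 7.80) and Hsd11b1 (10.02 and 8.45).

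Female adrenal and ovary shared the first steps and parted at the later ones. Of the 17 probesets, 7 were called, beside 9.85% of all probesets; 4 were higher in adrenal, the direction of 3.98% of all, and 3 higher in ovary, the direction of 5.87%. Higher in adrenal were Cyp21a1 by 11.67 (SE 0.64, adjusted p = 9.91e-07, limma), Cyp11b1 by 11.09 (SE 0.26, adjusted p = 3.83e-09), and the 2 probesets shared with Cyp11b2 by 11.64 (SE 0.06) and 11.29 (SE 0.35). Higher in ovary were Cyp17a1, Hsd17b1 and the shared Hsd3b probeset, for which adrenal minus ovary was -6.91 (SE 0.85, adjusted p = 0.000207), -5.61 (SE 0.24, adjusted p = 1.97e-07) and -4.73 (SE 0.23, adjusted p = 4.46e-07). No array of one organ overlapped the other for any of the 7, beside 47.8% of all expressed probesets without overlap.

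The members of the common first steps differed little. Star differed by -0.01 (SE 0.05, adjusted p = 0.876, limma) and 0.02 (SE 0.07, adjusted p = 0.807), and Hsd3b1 by -0.03 (SE 0.05, adjusted p = 0.642). Cyp11a1 was 0.26 higher in adrenal (SE 0.05, adjusted p = 0.0032, and 0.0331 with the replicate number as a block, limma). Fdx1 was 0.52 higher (SE 0.05, adjusted p = 2.13e-05, and 0.00154 with that block, limma). Both passed the adjusted p but not the fold limit, with no overlap between the organs. Since these values lie near the top of the scale, how far the range compresses such differences was not tested.

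Trace signals of adrenal enzymes in ovary were highest on array 5. Cyp21a1 on the ovary arrays was 2.22, 2.21, 2.20, 2.87 and 5.72, and the probeset shared by Cyp11b1 and Cyp11b2 2.81, 2.81, 2.98, 3.24 and 4.76. Cyp11b1 by 1368738_at was 2.28, 2.28, 2.32, 3.34 and 3.48, with arrays 4 and 5 above the others. Of the 6 adrenal medulla markers, Chgb was higher on array 5 (3.85 against 2.5 to 2.85), whereas Th, Dbh, Pnmt, Chga and Slc18a1 were 2.13, 2.66, 2.14, 2.59 and 2.23 there; the list averaged 2.60 on array 5 and 2.37 to 2.43 on the others. Their part in the trace signals was not tested.

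**Figure D2:**
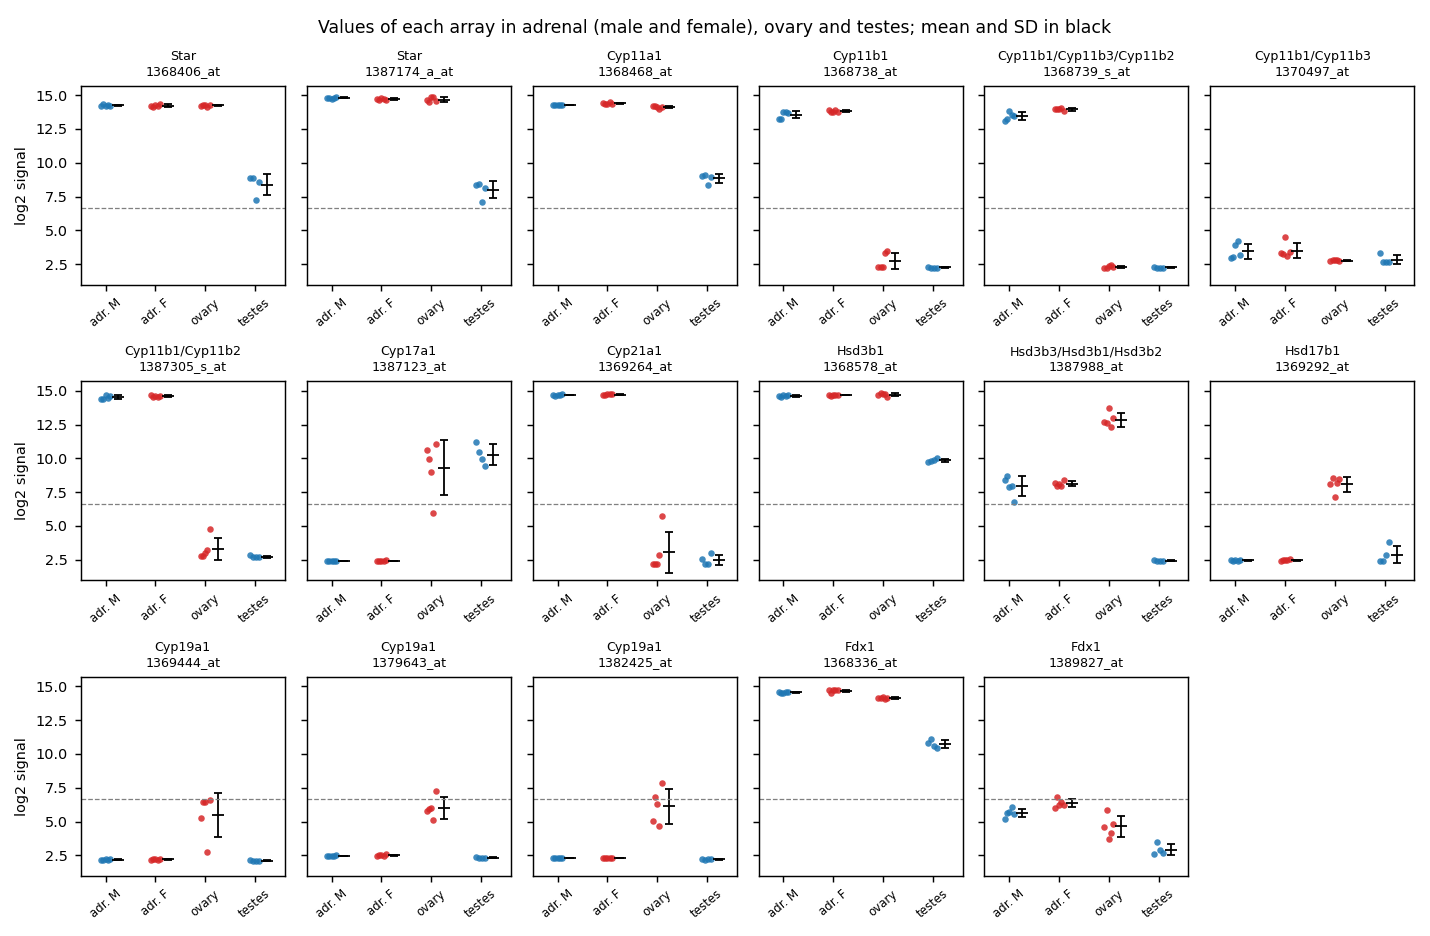
Log2 signal on every array of male adrenal, female adrenal, ovary and testes for the 17 probesets (points; black marks are mean and SD; the dashed line is the expression limit of 6.65). Star, Cyp11a1, Hsd3b1 and Fdx1 1368336_at sit together in adrenal and ovary above testes, Cyp21a1 and 3 Cyp11b probesets are high in adrenal alone, and Cyp17a1 is high in the gonads but near 2.4 in adrenal.

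Among the pathway genes outside the members, 3 of 8 cholesterol supply genes were higher in adrenal than ovary and 1 lower, 2 of 3 electron donors were higher, 3 of 15 other enzymes were higher and 3 lower, and 3 of 11 receptors and regulators were higher and 4 lower. The list medians were 0.07, 1.20, 0.06 and 0.41, beside 0.09 for all probesets. Highest in adrenal relative to ovary were the angiotensin receptor Agtr1b (10.05 and 2.63), Akr1b7, an aldo-keto reductase of the adrenal cortex (14.83 and 8.62), and Hsd11b2, which inactivates corticosterone (9.90 and 4.69). Lower in adrenal were Akr1c3 (1.94 and 14.54), Lhcgr (2.23 and 11.22) and the transcription factors Gata4 (2.14 and 9.85) and Nr5a2 (2.12 and 9.02). Adrenal medulla markers, of which 5 of 6 were called, moved with this comparison.

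In males, adrenal was set against testes. Here 11 of 17 probesets were called, beside 27.6% of all probesets, 10 of them higher in adrenal, the direction of 15.2% of all, and 1 higher in testes, the direction of 12.5%. Cyp21a1 differed by 12.19 (SE 0.16, adjusted p = 7.54e-11, limma), the Cyp11b probesets by 11.28, 11.19 and 11.78, Star by 5.86 and 6.78, Cyp11a1 by 5.42 (SE 0.14), Hsd3b1 by 4.76 (SE 0.06), the shared Hsd3b probeset by 5.51 (SE 0.35) and Fdx1 by 3.82 (SE 0.13). Cyp17a1 alone was higher in testes, with an adrenal minus testes difference of -7.84 (SE 0.32, adjusted p = 8.58e-08). Hsd17b1 and the Cyp19a1 probesets were below the limit in both organs. The testes arrays are the same as in the comparison of testes with ovary, and both comparisons with ovary use the same ovary arrays, so their differences are not independent of each other; the adrenal arrays are those of males here and of females there.

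Of the pathway genes, 5 of 8 cholesterol supply genes and 6 of 11 receptors and regulators were higher in adrenal than testes, with 0 and 1 lower, and their medians were 2.10 and 2.01 beside 0.12 for all probesets. Of the other steroid enzymes 6 of 15 were higher and 1 lower (median 0.63), and of the electron donors 2 of 3 were higher and 0 lower (median 3.65). Akr1b7 (15.01 and 3.73), Mrap (11.65 and 3.94), Hsd11b2 (10.14 and 2.5), Agtr1b (9.68 and 2.59) and Scarb1 (14.19 and 7.26) differed most. Gata4 (2.12 and 7.37) and Hsd11b1 (8.35 and 10.02) were lower in adrenal.

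Against the mean of the 28 other organs, adrenal had 10 of 17 probesets called, all higher, beside 12.1% of all probesets called and 6.86% called higher. Ovary had 8 of 17, all higher, beside 9.89% called and 6.77% called higher. Testes had 5 of 17, all higher, beside 26.2% called and 12.6% called higher. In ovary the differences were 11.60 and 11.84 for Star, 11.28 for Cyp11a1, 12.28 for Hsd3b1, 9.42 for the shared Hsd3b probeset, 5.48 for Hsd17b1, 5.28 for Cyp17a1 and 4.29 for Fdx1. In testes they were 5.74 and 5.18 for Star, 6.0 for Cyp11a1, 7.43 for Hsd3b1 and 6.21 for Cyp17a1, whereas Fdx1 was 0.88 higher, within the fold limit.

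The mean of the other organs hides the few that express a member. Set against the highest of them, testes Star was -0.41 (SE 0.52, adjusted p = 0.443, limma) and -0.18 (SE 0.42, adjusted p = 0.672) from adipose, and testes Cyp17a1 was 2.79 lower than stomach (-2.79, adjusted p = 2.29e-12). Ovary Cyp17a1 was below stomach as well (-3.72, SE 0.34, adjusted p = 1.30e-21, limma). The spread in these contrasts was pooled over all groups of organ and sex, whereas the 5 ovary arrays alone had an SD of 2.04. Their p-values therefore do not measure the spread within the organs named. The shared Hsd3b probeset was lower in adrenal than in caecum (-5.01, adjusted p = 4.31e-44) and differed by -0.18 between ovary and caecum (SE 0.34, adjusted p = 0.603). All other called members of these organs stayed above the highest other organ.

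Sex differences within tissues were few. In the 26 tissues with both sexes, a member probeset was expressed in at least 1 sex in 50 of 442 combinations of probeset and tissue. There were 2 calls: Fdx1 in liver and Cyp17a1 in duodenum. The percentage of all probesets called was 0.825% in liver and 2.78% in duodenum, within a range of 0% to 2.78% over the 26 tissues. Among those at 0% were aorta, heart and bone marrow, the tissues of the 4 arrays at odds with their sex label; without these arrays they had 0.0226%, 0.00322% and 0.0129%.

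Fdx1 in liver was higher in females. The male arrays were 11.19, 11.34, 11.25 and 11.61 and the female arrays 12.75, 12.62, 12.84, 12.73 and 12.82. The sexes did not overlap, as was the case for 12.9% of the expressed liver probesets. The means were 11.35 ± 0.18 in males (SD, n = 4) and 12.75 ± 0.09 in females (SD, n = 5). Male minus female was -1.40 (SE 0.09, adjusted p = 0.000182, limma). With the replicate number as a block it was -1.44 (adjusted p = 0.0227, limma), but males and females are different animals, so a shared number does not pair them.

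In a single fit over all somatic tissues, the sex difference in liver was tested against that in each of the other 25. Liver was taken because Fdx1 was called there, and every contrast uses the same liver arrays, so the contrasts are not independent. All 25 had an adjusted p under 0.05 (limma), with differences of differences from -1.80 (duodenum) to -1.12 (adipose). The number fell to 17 without male replicate 3 of every tissue and was between 18 and 25 without any other replicate. The next difference in size was in duodenum, where males were 0.40 higher (adjusted p = 0.135, limma) with overlapping sexes. In kidney males were 0.37 higher (10.72 ± 0.07 against 10.35 ± 0.14, SD, n = 5 each, adjusted p = 0.0089, limma) with no overlap, within the fold limit. The share of kidney probesets without overlap was not counted. No tissue besides liver and kidney had an adjusted p under 0.05. In adrenal, males were 0.11 lower (adjusted p = 0.168).

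**Figure D3:**
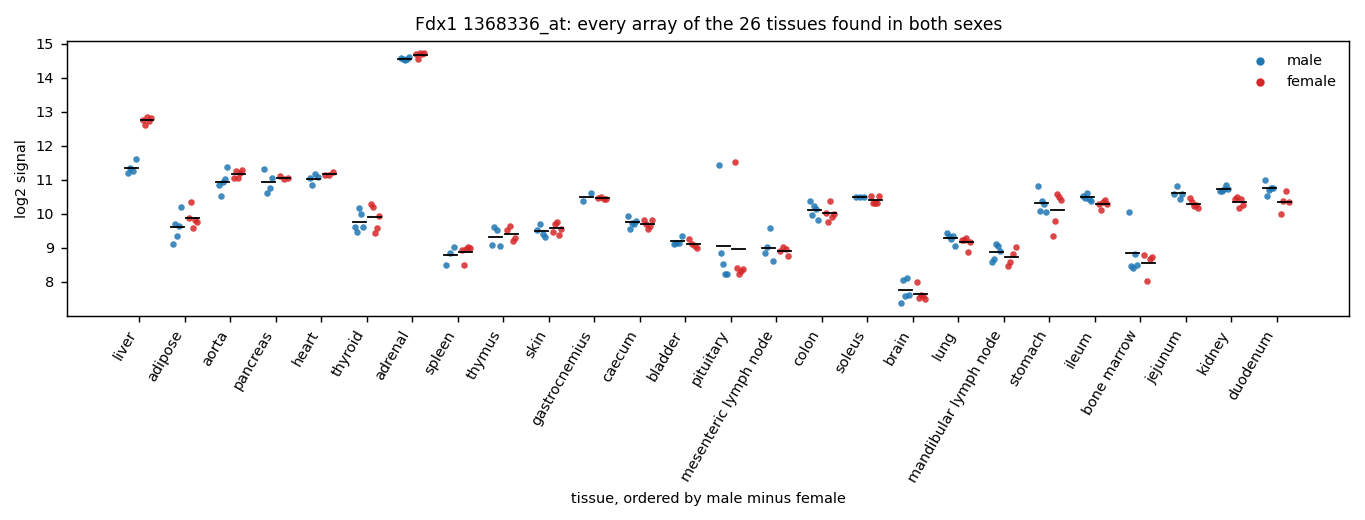
Log2 signal of Fdx1 1368336_at on every array of the 26 tissues found in both sexes (points; blue male, red female; black bars are group means), ordered from the most female-biased to the most male-biased tissue. In liver the female arrays (12.62 to 12.84) lie above all male arrays (11.19 to 11.61), and kidney is the one other tissue whose sexes do not overlap, with males higher.

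Other listed steroid enzymes were also SDE in liver. Hsd3b5, a liver member of the 3-beta-hydroxysteroid dehydrogenase family, averaged 12.40 in males and 2.40 in females, Akr1c3 9.33 and 1.92, Hsd11b1, which regenerates corticosterone, 13.05 and 10.51, and Sult1e1, the estrogen sulfotransferase, 13.70 and 3.83. Akr1b7 went the other way, with 4.75 in males and 13.29 in females, as did the prolactin receptor Prlr, from the list of luteal cell markers (6.48 and 11.28). All had an adjusted p under 0.05 (limma), the largest being 0.0434 for Prlr.

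Cyp17a1 in duodenum was higher in males. The male arrays were 12.06, 11.88, 11.94, 11.86 and 11.70 and the female arrays 11.07, 10.57, 10.99 and 10.87, so that the sexes did not overlap. Male minus female was 1.01 (SE 0.11, adjusted p = 0.00358, limma), just past the 2-fold limit, and fell to 0.97 without male replicate 1, to 0.91 without female replicate 2 and to 0.85 after quantile normalization of the arrays, each time losing the call. Without male replicate 3 it was 0.999, again short of the limit. In the fit over all groups at once its adjusted p was 0.0961. Tested against the sex difference in ileum, jejunum, liver and stomach, none of the 4 contrasts passed (adjusted p = 0.595, 0.888, 0.219 and 0.342, limma). Non-overlapping sexes were common in duodenum, at 25.1% of its expressed probesets.

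In adrenal, none of the 10 expressed member probesets was called between the sexes, beside 0.886% of all probesets. The largest difference was in 1368739_s_at, shared by Cyp11b1, Cyp11b3 and Cyp11b2, with males at 13.12, 13.26, 13.86, 13.54 and 13.48 and females at 13.95, 14.01, 13.95, 14.09 and 13.80. Males were 0.51 lower (adjusted p = 0.0577, limma), overlapping by male 3. Cyp11a1 was the one member whose sexes did not overlap (14.26 in males and 14.39 in females, adjusted p = 0.0925, limma), beside 14.3% of the expressed adrenal probesets. Of the listed pathway genes, the cholesterol-handling genes Stard4 (6.73 in males, 4.25 in females) and Abca1 (10.07 and 8.82) and the enzyme Hsd17b7 (8.08 and 6.10) were higher in males. Adipocyte markers moved with sex: they averaged 3.38 to 5.60 on male and 4.72 to 6.56 on female adrenal arrays, and their part in these values was not tested.

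In stomach, Cyp17a1 and Cyp19a1 showed no called sex difference: males were 0.04, 0.50, 0.65 and 0.58 higher for Cyp17a1 and the 3 Cyp19a1 probesets, each with an adjusted p = 0.999988 (limma), and female 1 was the lowest array for each; 0.0193% of all probesets were called in stomach. Adipose Star was 0.63 and 0.52 lower in males (adjusted p = 0.652 and 0.738) with overlapping arrays, where 0.197% of all probesets were called.

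The arrays that stood apart in pituitary and bone marrow had 1 or more members that are high in adrenal above the other arrays of their organ. Pituitary male 1 had Star at 10.25, Cyp11a1 at 10.16, Cyp11b1 at 7.39, Cyp21a1 at 10.50, Hsd3b1 at 11.79 and Fdx1 at 11.44, and pituitary female 1 had 10.53, 11.18, 9.86, 11.07, 11.68 and 11.51 in the same order. The other 8 pituitary arrays were at most 5.72, 3.74, 2.47, 3.97, 6.95 and 8.85 for these genes. Both arrays were high for the same members. Cyp17a1, which was below the limit in adrenal, was 2.36 and 2.33 on them.

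On pituitary female 1 the chromaffin genes Th and Dbh were 4.69 and 4.92, and on pituitary male 1 they were 2.15 and 2.79. The other 8 pituitary arrays had Th between 2.11 and 2.14 and Dbh between 2.59 and 2.97. The list of 6 adrenal medulla markers, which holds both genes, averaged 6.86 on female 1, 6.12 on male 1 and at most 6.11 on those 8 arrays. Values of Pnmt, Chga, Chgb and Slc18a1 on the pituitary arrays are not given singly here, so a rise of the whole list cannot be read from Th and Dbh. Bone marrow male 1 had Star at 8.02, Cyp11a1 at 7.17, Cyp21a1 at 7.48, Hsd3b1 at 9.69 and Fdx1 at 10.04, and males 3 and 4 had Hsd3b1 at 6.83 and 6.78; the 6 bone marrow arrays not standing apart were at most 2.97 for Hsd3b1. Their chromaffin genes Th, Dbh and Pnmt were at most 2.95. The pattern was another on the last 2 arrays. Pancreas female 2 had Hsd3b1 at 9.18, Cyp11a1 at 6.02 and Star at 5.06 by 1387174_a_at, with Cyp21a1 at 2.4. The other 6 pancreas arrays were at most 3.81, 2.23, 3.33 and 2.42 in the same order. By 1368406_at, Star was 2.30 on pancreas female 2. Mesenteric lymph node male 4 had the shared Hsd3b probeset at 11.75 against at most 2.43 on the other 7 arrays, together with Chgb at 7.5 against at most 2.6. Star (1368406_at), Cyp11a1, Cyp11b1 (1368738_at) and Cyp21a1 were 2.80, 2.08, 2.17 and 2.41 on that lymph node array. Without these 7 arrays, the counts of called members were again 10, 8 and 5 for adrenal, ovary and testes against the 28 other organs, 2 for sex and 25 for the contrasts of Fdx1. The source of the signal on these arrays was not tested.

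**Figure D4:**
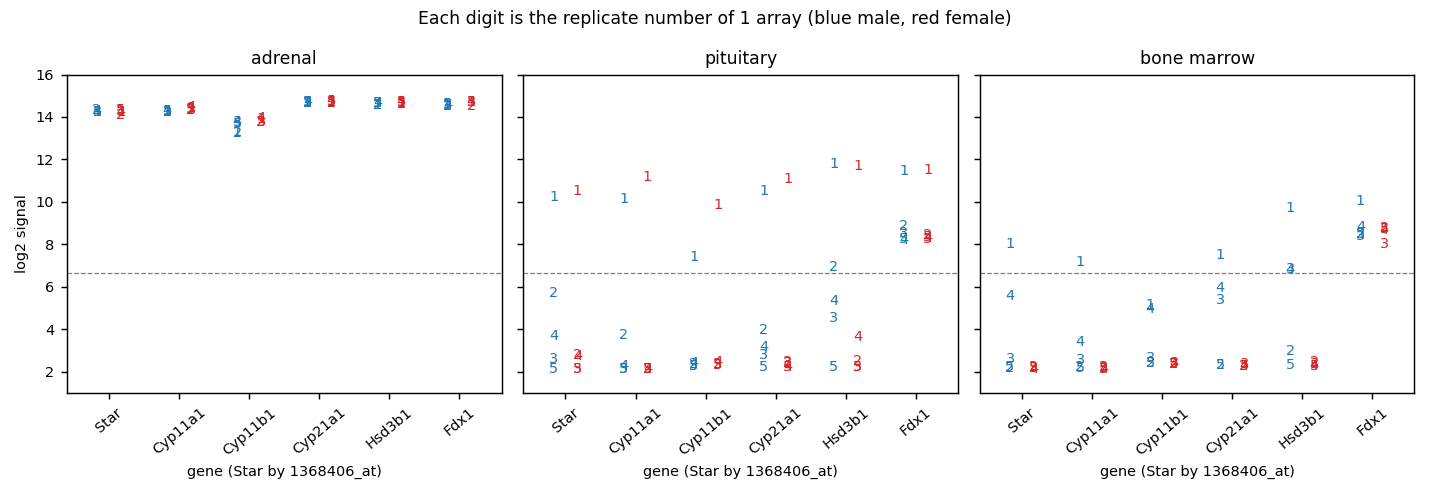
Log2 signal of 6 members on every array of adrenal, pituitary and bone marrow (digits are replicate numbers; blue male, red female; the dashed line is the expression limit of 6.65). Replicate 1 of both sexes in pituitary and male replicate 1 in bone marrow stand above the other arrays of their organ for the members that are high in adrenal.

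Finally, each member was set beside the genes whose organ means ran most like its own, by Pearson's r over the 31 organ means, a measure that 1 or 2 high organs set in these patterns and that is given as a description. Star, Cyp11a1 and Hsd3b1 all had Nr5a1, the steroidogenic factor 1 gene, first (r = 0.93, 0.88 and 0.94, by probeset 1369859_at), and Mgarp, a mitochondrial protein gene, in rank 3 (0.88, 0.84 and 0.90). Mrap was second for Star and Cyp11a1 (0.91 and 0.88) and Myo10 for Hsd3b1 (0.93), although Myo10 reached at most 4.79 in any organ mean. Cyp11b1 and Cyp21a1 both had Hcrtr2, an orexin receptor (0.99 and 0.97), and Dbh, the dopamine beta-hydroxylase of the medulla (0.97 and 0.96), first and second, followed by Ctxnd1 (0.96) and Ptgdr2 (0.96), the last at most 2.40 in any organ mean.

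Cyp17a1 ran with Tm4sf4 (0.78), Gata4 (0.78, by probeset 1370293_at) and Lgals2 (0.77), Cyp19a1 with Teddm3 (0.91), the gastric intrinsic factor gene Cblif (0.91) and Slc9a4 (0.91), Hsd17b1 with Bpifb6 (0.93), the zona pellucida gene Zp3 (0.92) and Amh (0.92), and Fdx1 with Klhdc8a (0.87), Fars2 (0.87) and Mir351 (0.85). Several of these genes were below the limit of 6.65 in every organ mean. Their highest means were 6.47 for Gata4, 5.60 for Zp3, 6.648 for Teddm3, 6.03 for Slc9a4, 5.65 for Klhdc8a and 4.12 for Mir351. Among members, Cyp11b1 and Cyp21a1 were most alike (0.99), followed by Star and Cyp11a1 (0.95), and Cyp17a1 ran with none of the others above the 0.53 it reached with Cyp19a1.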

How the data were processed

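The authors hybridised RNA of each organ to Affymetrix RAE230_2 arrays, left out those of poor quality, and deposited GCRMA values, which are log2 signals per probeset after background correction and quantile normalization. No version of GCRMA was stated, nor which arrays were normalized together. Depth has no meaning for arrays, whose number limits the precision.

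Probesets were named from the platform annotation: 20826 of 31042 had 1 gene symbol, 436 several and 9780 none. Of 87 listed genes, 76 had a probeset of their own. The members and lists were chosen with earlier results of these data known. Groups follow the labels for organ and sex. Differences were fitted with limma 3.58.1 (R 4.3.3) on the deposited log2 values: each organ pair and each tissue's sexes from their own arrays, and the comparisons with 28 organs, and of sex differences between tissues, in 1 fit each. P-values were adjusted by Benjamini-Hochberg over all 31042 probesets. Genes beyond the members were named by size of difference among those called in the lists, up to 5 in each direction, and likeness was Pearson's r over organ means. Organ means weight the sexes equally. The scripts were tested on simulated data. Same-numbered samples of female adrenal and ovary deviated most like each other for every number, with correlations of 0.06 to 0.21. Those of male adrenal and testes did so for numbers 2 and 4 alone. Males and females are different animals, so a number cannot link them. The labels do not say that a number is the same animal in every organ. Replicate number therefore served only as an alternative, with other normalization, thresholds, spread models and left-out arrays.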

Additional observations from a re-analysis of the deposited data

Results flagged for a closer look

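Groups of 4 to 10 arrays were examined where at least 1 array was above 6.65 for a member. Of 136 such groups, 24 had an array whose gap to the others was large for the range of its group. A single high array can bring its own group into this count, so the share cannot be set against a chance rate. Most came from pituitary. Female 1 stood out for Star (10.53 by 1368406_at, 10.06 by 1387174_a_at), Cyp11a1 (11.18), Cyp11b1 (9.86), 1368739_s_at (8.12), 1387305_s_at (10.66), Cyp21a1 (11.07), Hsd3b1 (11.68) and Fdx1 (11.51). Male 1 stood out for Cyp11a1 (10.16), Cyp11b1 (7.39), Cyp21a1 (10.50) and Fdx1 (11.44).

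Bone marrow male 1 stood out for Cyp11a1 (7.17) and Fdx1 (10.04), and mesenteric lymph node male 4 for the shared Hsd3b probeset (11.75). Cyp17a1 was low on stomach female 1 (10.81, the other females 13.20 to 13.82) and on liver male 4 (7.06, the other males 7.57 to 7.60).

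The remaining arrays were of Fdx1, with smaller gaps: adrenal female 2 (14.53, the others 14.69 to 14.71), bladder male 5 (9.34), bone marrow female 3 (8.02), brain female 1 (7.99), lung female 4 (8.89) and spleen female 2 (8.50).

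The sex difference of Fdx1 in liver differed from that in each of 25 other tissues, in contrasts that share the liver arrays.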

How the results depend on the processing

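Leaving out any single replicate kept the counts of called members at 7 for testes against ovary, 7 for adrenal against ovary, 11 for adrenal against testes, and 10, 8 and 5 for adrenal, ovary and testes against 28 other organs. It gave 1 to 2 for sex, and 17 to 25 for the contrasts of Fdx1 and Cyp17a1 sex differences between tissues, where the lowest was without male replicate 3. With the replicate number as a block, the counts were again 7, 7, 11, 10, 8, 5, 2 and 25, and no call changed. For testes against ovary and for sex the number joins different animals, so these blocked counts are no check by animal. Without the expression limit, 11 members passed for testes against ovary and 11 for adrenal against ovary, since fewer probesets are set aside. For sex, 1 remained after quantile normalization and 1 in a fit over all groups, each losing Cyp17a1 in duodenum (0.85 and 1.01, the latter with adjusted p = 0.0961, limma). Against the highest other organ, 8 members passed for testes, of which Cyp11a1 (1.09) and Hsd3b1 (4.54) were higher and 6 were lower, among them Fdx1 (-1.31, from 0.88). The sign turned for the shared Hsd3b probeset in adrenal (-5.01) and ovary (-0.18), for Cyp17a1 in ovary (-3.72) and testes (-2.79), and for Star in testes (-0.41 and -0.18), by construction, because that organ replaced the mean of 28. Arrays near the top of the scale limit how large a difference between adrenal and ovary can be measured.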
